A study of Mus musculus with 6 samples.

Results

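The genes described here encode the nuclear subunits of the mitochondrial respiratory chain and of ATP synthase, with the complex I assembly factors that carry an Ndufaf symbol. They were chosen by name, as the protein-coding genes of the count table whose mouse symbol starts with Nduf, Uqcr, Cox4 to Cox8 or Atp5, or is Sdha, Sdhb, Sdhc or Sdhd, a rule that reads no expression value. It found 93 genes among 47069 in the table, of which 21637 are protein-coding, and 86 of the 93 passed the filter on low counts, against 14736 genes of the whole table. By complex, 44 members belong to complex I, 4 to complex II, 8 to complex III, 20 to complex IV and 17 to ATP synthase.

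The values came from bulk RNA sequencing of LβT2 cells, immortalized mouse gonadotropes from the anterior pituitary that carry the receptor for GnRH, the gonadotropin-releasing hormone. The cells of all 6 libraries were labelled with 14 passages and had received 2 nM GnRH over 40 min, so every library is from stimulated cells and none is from vehicle. The 3 fresh libraries were made from cells lysed directly after trypsin treatment, and the 3 RNA-Best libraries from cells held for 4 days or more in the stabilizing reagent RNA-Best at 4 °C. Separate cultures are not stated for the libraries of either group, and p-values therefore measure a spread between libraries that may be technical.

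The respiratory chain sits in the inner mitochondrial membrane. Complexes I and II pass electrons from NADH and succinate to ubiquinone, complex III passes them on to cytochrome c, and complex IV passes them to oxygen, while complexes I, III and IV pump protons that ATP synthase then uses to make ATP. A few subunits are encoded in mitochondrial DNA, and all members here are encoded in the nucleus, mostly by short messages whose proteins are imported into the mitochondrion.

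The shortest reading frame among the members is that of Atp5e, which encodes the epsilon subunit in the central stalk of ATP synthase and had the lowest fold change of all members. Its gene lies at chr2:174461072-174464105 on the minus strand (GRCm38, GENCODE M21), and its reading frame of 159 bases, taken from the coding exons, holds 52 codons before the stop. The start and stop codons are in capitals.
Atp5e: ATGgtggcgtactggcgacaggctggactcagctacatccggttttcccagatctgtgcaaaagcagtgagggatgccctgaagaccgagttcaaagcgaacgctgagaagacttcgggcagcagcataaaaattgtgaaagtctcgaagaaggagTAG

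Another set of sequences bears on how well related members can be told apart. Subunit c, which forms the rotating membrane ring of ATP synthase, is encoded by Atp5g1 (chr11:96068852-96075670), Atp5g2 (chr15:102662864-102672352) and Atp5g3 (chr2:73908447-73911326), each on the minus strand. The last 228 coding bases of the 3 genes, stop codon included, encode the same 75 residues with different codons. The last 90 of them, all in coding exons, are shown with capitals at each position where the 3 genes are not all alike.
Atp5g1: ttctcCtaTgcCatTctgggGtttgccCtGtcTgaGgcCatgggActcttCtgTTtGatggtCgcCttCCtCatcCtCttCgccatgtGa
Atp5g2: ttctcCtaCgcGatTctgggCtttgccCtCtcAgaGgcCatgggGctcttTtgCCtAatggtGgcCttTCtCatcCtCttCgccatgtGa
Atp5g3: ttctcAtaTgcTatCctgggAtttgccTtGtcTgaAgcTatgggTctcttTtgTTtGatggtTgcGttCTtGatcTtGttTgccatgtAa
Over the 228 bases, Atp5g1 and Atp5g2 were 85.1% identical, Atp5g1 and Atp5g3 79.8% and Atp5g2 and Atp5g3 78.5%. The longest run that any pair shared was 21 bases. Even so, all 3 genes held parts of counts, which shows that some of their reads were divided between places.

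Nearly all of these genes were lower in RNA-Best than in fresh libraries. Of the 86 tested, 77 fell and none rose (edgeR quasi-likelihood test, adjusted p under 0.05), against 24.8% of all 14736 tested genes that were lower and 26.0% that were higher. The median log2 fold change of the members was -0.30, which is a level 18.6% lower, and the range was -0.53 to 0.03, while the median of all tested genes was -0.0074. No member was higher at an unadjusted p under 0.05, and none was higher by DESeq2 or limma-voom. In 79 members every RNA-Best value was below every fresh value, a pattern that 29.0% of all tested genes showed. In size, 71 members were lower by over 10%, 35 by over 20% and 10 by over 25%.

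Above 50 CPM, high shares of lower calls were also found among other genes of like length. Here CPM is the read count relative to library size. Messages of up to 1000 bases with a mean level over 50 and up to 200 CPM were lower in 30 of 30 members, with a median log2 fold change of -0.31, and in 223 of 242 other genes, or 92.1%, with a median of -0.29. Above 200 CPM the counts were 16 of 16 members, with a median of -0.37, and 85 of 99 other genes, or 85.9%, with a median of -0.27. At up to 50 CPM 4 of 4 members and 32.2% of 1822 other genes were lower. Over 1000 and up to 2000 bases, 2 of 6 members and 28.8% of 2263 other genes were lower at up to 50 CPM, 11 of 12 members and 77.7% of 732 at over 50 and up to 200 CPM, and 9 of 9 members and 87.5% of 216 above that. Values with an offset for message length are given with the lengths.

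**Figure D1:**
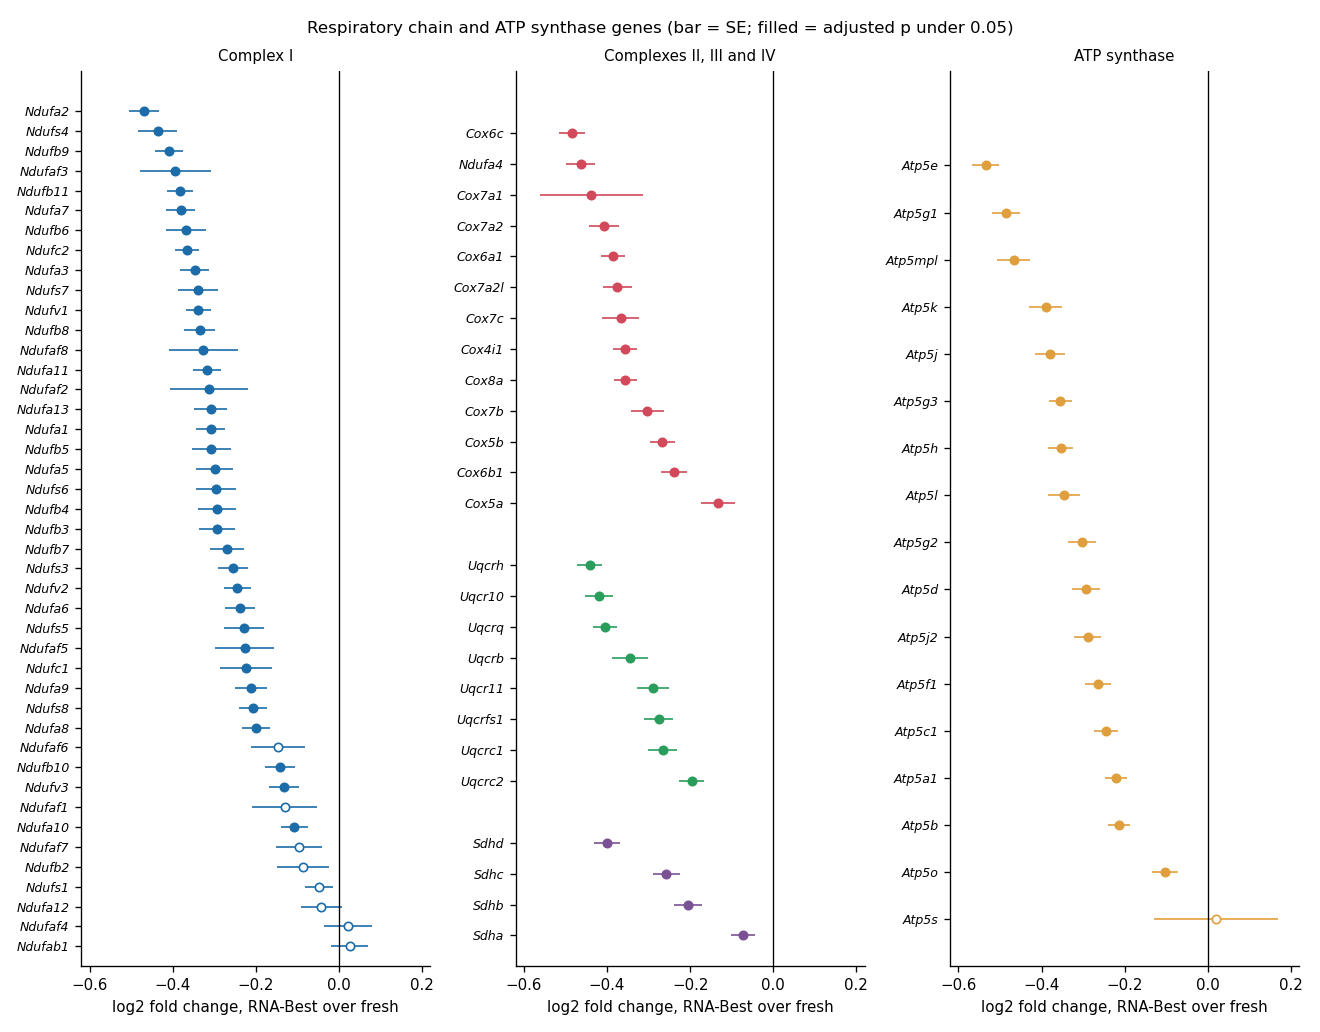
Log2 fold change of RNA-Best over fresh for 85 of the 86 tested members, by complex. Points are estimates from edgeR, bars are standard errors, and filled points have an adjusted p under 0.05. Of the points, 82 lie below 0 and 3 above it, and the 9 open points are those without a call.

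The summed level of the 93 members was 19178, 18935 and 19640.4 CPM in the fresh libraries and 15483, 15644 and 15939.7 CPM in the RNA-Best libraries, where CPM is scaled by the TMM library sizes. Each RNA-Best sum was below each fresh sum. The means were 19251 ± 359 CPM in fresh and 15689 ± 231 CPM in RNA-Best libraries (SD, n = 3), a ratio of 0.815. In bulk samples, fewer cells of a kind and less RNA per cell cannot be told apart. CPM is relative to the library, so higher levels of other messages could also lower these sums. Amounts of RNA per cell were not measured. By complex, the ratio of the sums was 0.825 for complex I, 0.855 for complex II, 0.793 for complex III, 0.780 for complex IV and 0.826 for ATP synthase.

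**Figure D2:**
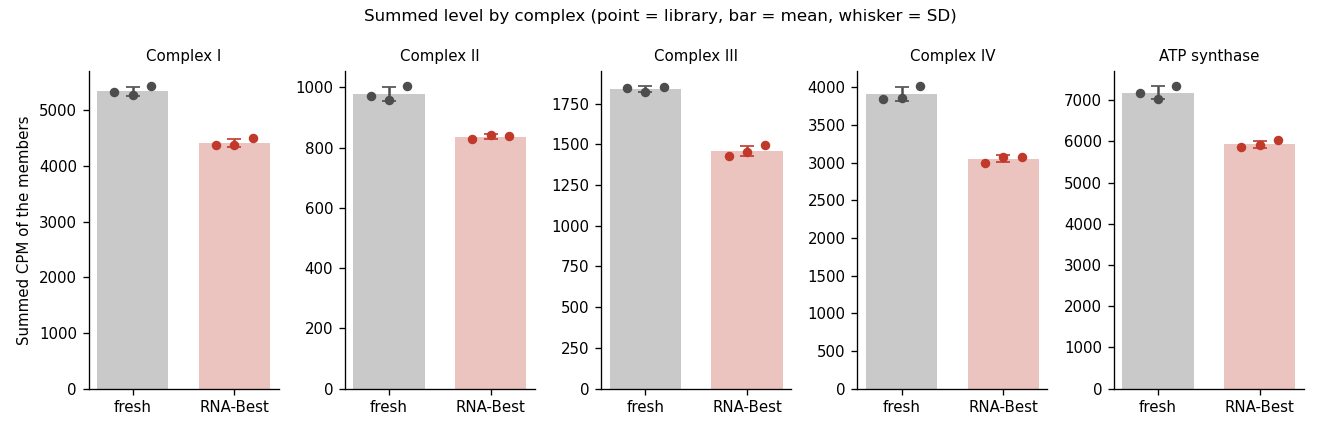
Summed CPM of the members of each complex in the 3 fresh and 3 RNA-Best libraries. Points are libraries, bars are means and whiskers SD, on axes that start at 0. In each complex the 3 RNA-Best points lie below the 3 fresh points.

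The libraries of a group lay close together. The median deviation of the tested members from their own mean over the 6 libraries was 0.14, 0.12 and 0.18 on the log2 scale in the fresh libraries and -0.17, -0.16 and -0.14 in the RNA-Best libraries, with a pooled SD within groups of 0.0251. Single members spread more widely, from -0.44 to 0.41. Library totals ran from 14477304 to 47438746 counts in fresh and from 4909418 to 11999363 in RNA-Best libraries, so the fresh group was the deeper one throughout. With all libraries thinned to the smallest total, 74 members were lower and none higher, against 2546 lower and 2755 higher of the 12913 genes tested.

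**Figure D3:**
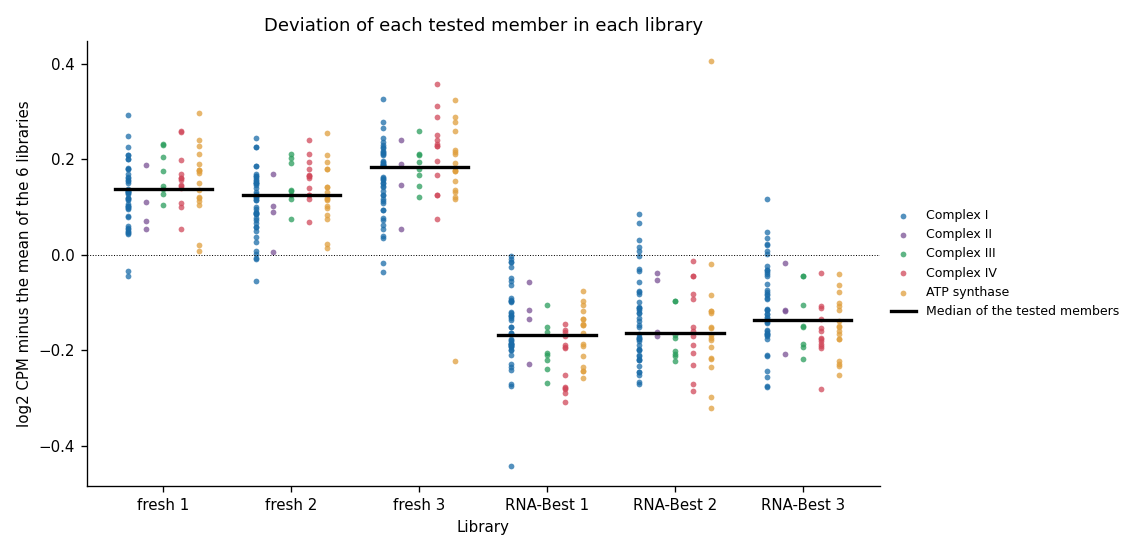
Deviation of log2 CPM of each of the 86 tested members from its mean over the 6 libraries, by library and complex. Black lines are medians over the members, which run from 0.12 to 0.18 in the fresh and from -0.17 to -0.14 in the RNA-Best libraries.

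The cells carried their gonadotrope markers. Cga, the common glycoprotein hormone subunit, lay at 1802 to 1844 CPM in fresh and 1408 to 1444 CPM in RNA-Best libraries, and the transcription factor genes Nr5a1 and Pitx1 were lower in RNA-Best libraries too, from 437 to 442 against 371 to 385 CPM and from 662 to 694 against 567 to 601 CPM. The GnRH receptor gene Gnrhr was higher, at 109.8 to 126 CPM in fresh and 158 to 172 CPM in RNA-Best libraries. The groups did not overlap in these 4 genes. Lhb overlapped, between 25.3 and 29.7 CPM over the 6 libraries, and Fshb had no count in any. Among markers of other cells, Prl, Sox2, Dcn and Ptprc had no count, Gh, Pomc, S100b and Col1a1 did not exceed 0.174 CPM, Tshb reached 0.770 to 1.04 CPM in fresh and 1.22 to 2.27 CPM in RNA-Best libraries, and the endothelial marker Pecam1 was present at 42.1 to 43.4 CPM in fresh and 37.5 to 40.7 CPM in RNA-Best libraries. The part of these marker differences in the members' results was not tested.

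Per kilobase of main transcript, the highest levels were those of complex IV and ATP synthase subunits. In fresh libraries Cox8a stood at 1148 ± 35.5 CPM per kilobase, Cox6a1 at 1148 ± 37.8 and Cox4i1 at 1041 ± 38.2 (SD, n = 3), and the first 2 did not differ beyond their spread. Atp5a1, at 885 ± 19.4, and Atp5e, at 849 ± 39.5, came next and also lay within their spread of each other. The median level of the tested members was 98.1 CPM per kilobase in complex I, 134 in complex II, 220.5 in complex III, 321 in complex IV and 315 in ATP synthase. In RNA-Best libraries these medians were 81.3, 120.5, 184, 233 and 253. These levels depend on the transcript length used for each gene.

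**Figure D4:**
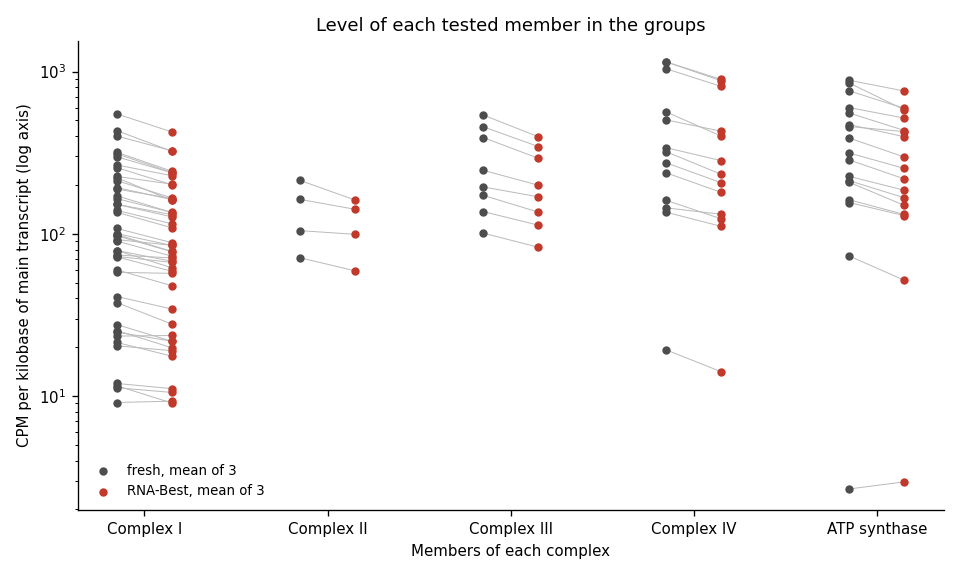
Mean CPM per kilobase of main transcript of each tested member in fresh and RNA-Best libraries (n = 3 each), by complex, on a log axis. Grey lines join the values of 1 gene. Most lines slope slightly downward, and the spread between genes of a complex far exceeds the difference between the groups.

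Complex I is the largest complex, and 36 of its 44 members fell, with a median log2 fold change of -0.28. Of the 7 nuclear core subunits, which hold the flavin and iron-sulfur centres or the ubiquinone site, 6 fell. Ndufv1, which binds NADH and the flavin, was measured at 287, 280.0 and 289 CPM in fresh and 219, 223 and 232 CPM in RNA-Best libraries. Its groups did not overlap, and its log2 fold change was -0.34 (SE 0.0309, adjusted p = 2.51e-11 by edgeR).

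Ndufs1, the large core subunit with several iron-sulfur clusters, was the only core subunit without a call, though offsets for exonic length and GC content, given with the lengths, called it lower. Its values of 196, 189 and 198 CPM in fresh and 184, 180.4 and 195 CPM in RNA-Best libraries overlapped, with a log2 fold change of -0.05 (SE 0.0332, adjusted p = 0.247 by edgeR). It is among the longest members, with a main transcript of 2626 bases. Among other core subunits, Ndufs3, Ndufs7, Ndufs8 and Ndufv2 fell by 0.25, 0.34, 0.21 and 0.24 on the log2 scale.

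The supernumerary subunits surround the core and serve its assembly and stability, and 26 of 29 fell, with a median log2 fold change of -0.30. Ndufa2 changed most among them, from 128, 126 and 126 CPM in fresh to 91.7, 92.7 and 91.2 CPM in RNA-Best libraries. This was a log2 fold change of -0.47 (SE 0.0366, adjusted p = 5.42e-13 by edgeR), with groups far apart relative to a spread of about 1 CPM in each. Ndufs4, a small subunit whose loss is a known cause of complex I deficiency, went from 63.9 ± 1.79 to 47.1 ± 1.66 CPM (SD, n = 3) and its groups did not overlap. Its log2 fold change was -0.44.

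Ndufa12, Ndufab1 and Ndufb2 were the supernumerary subunits without a call. Ndufab1, the mitochondrial acyl carrier protein that also serves fatty acid synthesis, had 55.8, 57.2 and 59.0 CPM in fresh and 56.6, 57.4 and 59.5 CPM in RNA-Best libraries, nearly the same range. The log2 fold change of 0.03 (SE 0.0455, adjusted p = 0.659 by edgeR) was the highest of all members. Ndufa12, a subunit near the core of the peripheral arm, was measured at 62.2, 67.7 and 63.0 CPM in fresh and 58.3, 67.6 and 64.0 CPM in RNA-Best libraries. The ranges overlapped, at a log2 fold change of -0.04. Ndufb2 had 27.1 ± 0.868 CPM in fresh and 25.4 ± 0.724 CPM in RNA-Best libraries (SD, n = 3), with the groups apart but an adjusted p of 0.266 by edgeR, and it was called lower with the offsets for exonic length and GC content.

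The 8 assembly factors help to build complex I and leave it afterwards. Here 4 fell, namely Ndufaf2, Ndufaf3, Ndufaf5 and Ndufaf8, with log2 fold changes from -0.39 to -0.23, and Ndufaf1, Ndufaf4, Ndufaf6 and Ndufaf7 had no call, of which all but Ndufaf6 were called lower with the offset for GC content. The levels of the 8 were low, at a sum of 194 ± 4.31 CPM in fresh and 171 ± 4.17 CPM in RNA-Best libraries (SD, n = 3), against 3736 ± 58.5 and 3046 ± 38.4 CPM for the supernumerary subunits. Ndufaf4 had 34.6, 32.2 and 32.6 CPM in fresh and 33.2, 34.2 and 33.9 CPM in RNA-Best libraries, and these overlapped. The calls of Ndufaf2 and Ndufaf5 were lost without the RNA-Best replicate 1, at log2 fold changes of -0.17 and -0.19. Ndufaf6, at -0.15, had an adjusted p of 0.0595 by edgeR, and passed at -0.17 without the fresh replicate 1. The values of Ndufaf2 overlapped between the groups despite its call.

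Complex II oxidizes succinate and also belongs to the citric acid cycle, and all of its 4 subunits fell. They were unequal in size. Sdhd, a membrane anchor, was measured at 261, 257 and 270.2 CPM in fresh and 195, 204 and 198 CPM in RNA-Best libraries, with a wide gap between the groups. The log2 fold change was -0.40 (SE 0.0316, adjusted p = 7.65e-13 by edgeR). Sdhc, the other anchor, had 222, 221 and 235 CPM in fresh and 189.8, 183 and 189.9 CPM in RNA-Best libraries. These groups were apart, and the log2 fold change was -0.26. Sdhb, the iron-sulfur subunit, had 182, 185 and 192 CPM in fresh and 158, 167 and 160.0 CPM in RNA-Best libraries. The groups were again apart, at a log2 fold change of -0.20.

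Sdha, the flavoprotein that binds succinate, changed least among the called members. Its 307, 297 and 307 CPM in fresh and 284, 288 and 292 CPM in RNA-Best libraries did not overlap, but the fold was small, at -0.07 on the log2 scale (SE 0.0293, adjusted p = 0.0396 by edgeR). Leaving out the fresh replicate 1 or 3 or any RNA-Best replicate ended this call, with log2 fold changes from -0.08 to -0.06. DESeq2 did not call it either.

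Complex III passes electrons from ubiquinol to cytochrome c, and its 8 members, the subunits with an Uqcr symbol, all fell, with log2 fold changes from -0.44 to -0.20. Uqcrfs1, the Rieske iron-sulfur protein, had 136, 136 and 141 CPM in fresh and 112, 110.5 and 116 CPM in RNA-Best libraries. The groups were apart, with a log2 fold change of -0.28 (SE 0.0356, adjusted p = 4.73e-08 by edgeR). Uqcrc1, a large core protein, had 226, 226 and 227 CPM in fresh and 179, 183 and 199.6 CPM in RNA-Best libraries. The fresh values were nearly identical, the RNA-Best values were more spread, and the log2 fold change was -0.27. Uqcrh, the acidic hinge protein beside cytochrome c1, had the lowest fold change of the complex, -0.44, from 295 ± 6.57 to 217 ± 2.39 CPM (SD, n = 3).

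Complex IV reduces oxygen, and its 13 tested members all fell, with a median log2 fold change of -0.37. Cox4i1, the common form of the largest nuclear subunit, had 775, 764 and 818 CPM in fresh and 619.7, 602 and 615 CPM in RNA-Best libraries. The groups were well apart, at a log2 fold change of -0.36 (SE 0.0286, adjusted p = 1.04e-12 by edgeR). Cox6c, a small membrane subunit, had 344, 329 and 351 CPM in fresh and 237, 239 and 252 CPM in RNA-Best libraries. The log2 fold change of -0.48 (SE 0.0321, adjusted p = 9.44e-15 by edgeR) was the lowest of the complex, with no overlap. Ndufa4, named after complex I but a subunit of complex IV, had 173, 171 and 166 CPM in fresh and 119.7, 124 and 127 CPM in RNA-Best libraries. Its groups were apart, with a log2 fold change of -0.46.

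Cox5a, a matrix-side subunit, changed least in complex IV. It had 92.5, 93.3 and 93.8 CPM in fresh and 80.5, 88.3 and 86.7 CPM in RNA-Best libraries, which did not overlap, at a log2 fold change of -0.13 (SE 0.0399, adjusted p = 0.00552 by edgeR). Without the RNA-Best replicate 1 the log2 fold change was -0.09 and the call was lost, as it was with the length offsets, at -0.05 and 0.03. Cox7a2l, which helps complexes III and IV to join into supercomplexes, had 169.7, 172 and 178 CPM in fresh and 128, 136 and 136 CPM in RNA-Best libraries. Its groups were apart and its log2 fold change was -0.38.

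The 8 alternative subunits of complex IV, which stand in for the common forms in muscle, lung, testis or low oxygen, were scarce. Cox7a1, the heart and skeletal muscle form, was the only one to pass the filter, with 7.15, 7.25 and 8.28 CPM in fresh and 5.21, 6.10 and 5.32 CPM in RNA-Best libraries. The groups did not overlap, at a log2 fold change of -0.44 (SE 0.124, adjusted p = 0.00331 by edgeR). With the offsets for exonic and main transcript length that are described with the lengths, it stood at -0.27 and -0.26 and had no call. The other 7 were not tested. Cox6a2 reached 0.487 CPM at most, Cox6b2 0.466, Ndufa4l2 0.249, Cox7b2 0.223 and Cox4i2 0.113. Cox8b and Cox8c had 0 counts in every library. Such a 0 could hide up to 3 counts, or from 0.0636 CPM where depth was greatest to 0.610 CPM where it was least, counting error only.

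ATP synthase joins the catalytic F1 head, a central and a peripheral stalk and the membrane part, and 16 of its 17 members fell. In the head and central stalk all 5 fell. Atp5a1, the alpha subunit and the member with the most counts, had 2201, 2132 and 2224 CPM in fresh and 1843, 1865 and 1919 CPM in RNA-Best libraries. The gap between the groups exceeded the spread within each, and the log2 fold change was -0.22 (SE 0.0267, adjusted p = 1.32e-08 by edgeR). Atp5b, the catalytic beta subunit, had 1147, 1145 and 1156 CPM in fresh and 971, 980.1 and 1020.3 CPM in RNA-Best libraries. These groups were apart too, at a log2 fold change of -0.21.

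Atp5e, whose short reading frame is printed above, had 363, 339 and 370.2 CPM in fresh and 249.8, 237 and 248 CPM in RNA-Best libraries. It was 31.0% lower, at a log2 fold change of -0.53 (SE 0.0334, adjusted p = 2.26e-15 by edgeR), and none of its libraries held parts of counts. The F1 genes Atp5d and Atp5c1, for the delta and gamma subunits, lay between it and Atp5a1 at -0.29 and -0.24. Of the membrane subunits Atp5mpl, Atp5k, Atp5l and Atp5j2, all 4 fell, led by the small proteolipid gene Atp5mpl at 102, 99.5 and 103 CPM in fresh and 72.8, 73.2 and 73.6 CPM in RNA-Best libraries. Its groups were far apart, with a log2 fold change of -0.47.

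The peripheral stalk genes Atp5j, Atp5h, Atp5f1 and Atp5o fell as well, with Atp5o, the oligomycin sensitivity protein, the least at -0.10. Without the RNA-Best replicate 1 it stood at -0.08 and its call was lost, and with the length offsets at -0.0071 and 0.05, again without a call. Atp5s, a factor B gene that is not a subunit of the core enzyme, was the only gene of this complex without a call. It was low, at 4.32, 4.37 and 3.69 CPM in fresh and 4.08, 5.70 and 3.91 CPM in RNA-Best libraries, which overlapped (log2 fold change 0.02, SE 0.149, adjusted p = 0.929 by edgeR).

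The 3 subunit c genes, whose coding ends are printed above, all fell. Atp5g1 had 190.0, 196 and 199 CPM in fresh and 142, 134 and 139.7 CPM in RNA-Best libraries. There was no overlap, and the log2 fold change was -0.49 (SE 0.0339, adjusted p = 3.58e-14 by edgeR). Atp5g2 had 183, 181 and 189 CPM in fresh and 154, 142 and 149 CPM in RNA-Best libraries, which were apart, at a log2 fold change of -0.30. Atp5g3 had 546, 533 and 562 CPM in fresh and 424, 422 and 432 CPM in RNA-Best libraries, again apart, at a log2 fold change of -0.35.

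Since the 3 genes encode the same ring protein, their shares of the summed level per kilobase were compared. Atp5g3 gave most of it, 66.2% ± 0.227 in fresh and 66.1% ± 0.805 in RNA-Best libraries (SD, n = 3). Atp5g2 gave 27.4% ± 0.0784 and 28.2% ± 0.719, and Atp5g1 gave 6.35% ± 0.156 and 5.76% ± 0.0856. Every RNA-Best share of Atp5g1 was below, and every RNA-Best share of Atp5g2 above, the fresh shares (exact permutation test, two-sided, p = 0.1 for each, the smallest p that 3 against 3 allows). The difference in the Atp5g2 share, 0.771 percentage points, was 0.380 without the RNA-Best replicate 1 and 1.09 without the RNA-Best replicate 2. For Atp5g3 the shares overlapped (exact permutation test, two-sided, p = 0.8). The share of Atp5g1 depends on the length assigned to it and was 9.92% in fresh libraries when the union of its exons was used. Its main transcript length was a median over 4 principal transcripts of 596 to 4715 bases. The split between the 3 genes is therefore uncertain. All 3 also held parts of counts.

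Reads of the members can be shared with other genes, since many of them have processed pseudogenes. In 63 of the 86 tested members, at least 1 library held parts of counts, which shows that some reads were divided between places, and the values of these genes are uncertain by that amount. Among the 23 without parts of counts, 18 fell and none rose, with a median log2 fold change of -0.24.

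The fold changes followed message length, as they did across all genes. The tested members had a median main transcript of 868 bases, against 2597 bases for all tested genes. Spearman's rho between log2 fold change and main transcript length was 0.564 over the 86 members and 0.552 over 14689 genes, given as a description, since genes share libraries and are not independent replicates. The length classes that follow are not matched for level, and shares by length and level together are given above. Among messages of up to 600 bases, 22 of 22 members and 37.8% of the 963 other genes fell. Over 600 and up to 1000 bases it was 28 of 28 members and 44.2% of 1200 other genes, and over 1000 and up to 2000 bases 22 of 27 members and 43.9% of 3211. Over 2000 and up to 4000 bases 5 of 9 members fell, with a median log2 fold change of -0.09, and 1085 of 5414 other genes. Among these members, Atp5g1, Ndufb2 and Ndufab1 were placed by the median of principal transcripts of unlike length. These run from 596 to 4715, 455 to 4371 and 1416 to 3479 bases, so another choice of length could change the class counts. By main transcript length no member was longer, and above that length 4.59% of 3815 genes fell.

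**Figure D5:**
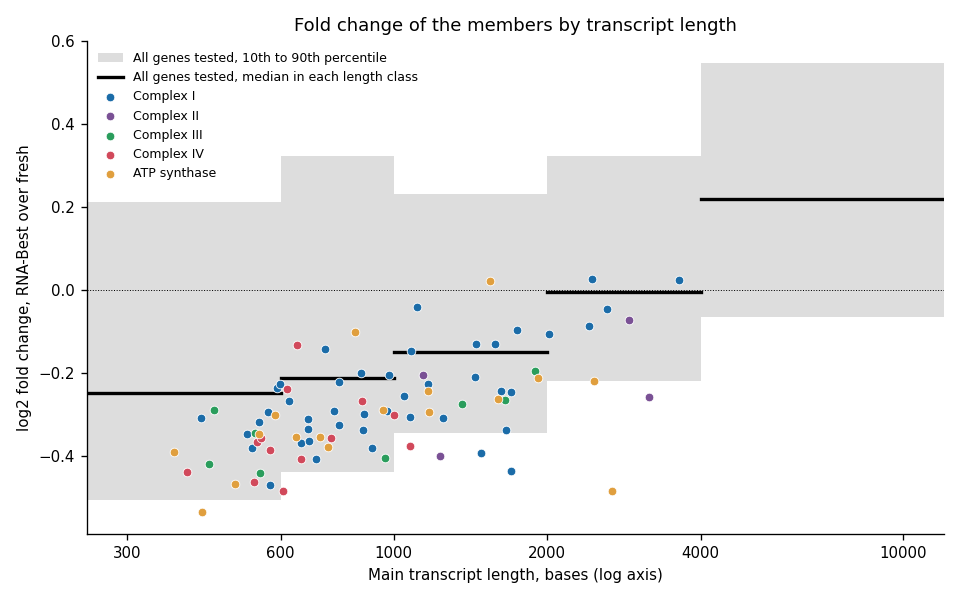
Log2 fold change of RNA-Best over fresh against main transcript length on a log axis for the 86 tested members, coloured by complex. Black lines are medians and grey bands the 10th to 90th percentile of all tested genes in 5 length classes, the outer 2 drawn to the edge of the plot. The medians rise from -0.25 in the shortest class to 0.22 in the longest, and most members up to 2000 bases lie below the median of their class. Levels are not matched within a class.

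Members of like length did not all have like fold changes. Ndufs4 and Atp5s, of 1698 and 1542 bases, stood at -0.44 and 0.02, with Atp5s much the lower in level. When each library was given an offset for gene length, 70 members fell with exonic length and 61 with main transcript length, none rose in either, and the medians were -0.20 and -0.16. Over all tested genes, 2328 were higher and 3637 lower with exonic length and 2168 and 3448 with main transcript length, against 3828 and 3651 without an offset. By complex, the offset for main transcript length left 25 of 44 lower in complex I, 3 of 4 in complex II, 8 of 8 in complex III, 10 of 13 in complex IV and 15 of 17 in ATP synthase. Of the 8 assembly factors, 1 was lower under it. Among other members named above, Ndufs8 and Sdhb lost their calls under it, at -0.07 each, while Ndufs1, Ndufb2 and Ndufab1 were called lower with exonic length, at -0.23, -0.17 and -0.12, and not with main transcript length. An offset for GC content gave 82 lower members and lost no call, with 3201 of 14677 genes higher and 3864 lower. The 5 calls it added were Ndufs1 at -0.18, Ndufb2 at -0.19, Ndufaf1 at -0.24, Ndufaf4 at -0.17 and Ndufaf7 at -0.20.

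The promoters of members were searched for motifs of factors known for their binding near respiratory genes, on both strands. RefSeq promoters on GRCm38.p6, which run from 250 bases before to 50 bases after a start, were found for 76 of 93 members, 2 of them by a synonym, giving 81 promoters. Nuclear respiratory factor 1 (NRF1) was searched as GCGCATGC, GABPA, an ETS factor also called NRF-2, as CCGGAAGT, YY1 as AAGATGGCG and the TATA box as TATAAA. Stretches upstream of 6 starts are shown, each on the minus strand, from the genes with the lowest log2 fold changes among members that hold the motif there. The motif, on either strand, is in capitals, and where both strands match in Atp5k and Cox6a1 the matches overlap, while none of the stretches holds another motif of the search.
Atp5k, NRF1, chr5:108434400-108434494: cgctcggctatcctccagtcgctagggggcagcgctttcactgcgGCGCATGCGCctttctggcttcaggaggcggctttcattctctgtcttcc
Cox6a1, NRF1, chr5:115349068-115349165: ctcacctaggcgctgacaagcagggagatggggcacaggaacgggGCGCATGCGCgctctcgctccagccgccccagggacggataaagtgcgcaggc
Atp5l, NRF1, chr9:44920930-44920992: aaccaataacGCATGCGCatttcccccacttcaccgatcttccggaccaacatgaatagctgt
Uqcrh, GABPA, chr4:116075071-116075126: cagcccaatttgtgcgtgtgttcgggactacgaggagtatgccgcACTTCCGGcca
Atp5h, GABPA, chr11:115419920-115420003: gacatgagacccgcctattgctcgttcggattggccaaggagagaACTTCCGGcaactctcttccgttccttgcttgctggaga
Atp5j, YY1, chr16:84835011-84835109: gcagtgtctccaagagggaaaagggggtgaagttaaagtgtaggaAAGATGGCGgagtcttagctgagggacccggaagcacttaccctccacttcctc

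The NRF1 letters were in 12 of the 81 promoters, or 14.8% (95% Wilson interval 8.68% to 24.1%), and in 2.71% of all 32851 promoters of the same length. The YY1 letters were in 8, or 9.88% (5.09% to 18.3%), against 1.40%. Before the start only, the YY1 letters were in 1.23% of the member promoters and in 0.606% of all promoters. The GABPA letters were in 5, or 6.17% (2.67% to 13.6%), against 3.89%, and the TATA letters in 8, or 9.88% (5.09% to 18.3%), against 13.6%. Upstream of the start alone, the shares of member and all promoters were 11.1% and 2.26% for NRF1. They were 3.70% and 2.88% for GABPA and 8.64% and 12.4% for TATA. These intervals cover counting error only, and a match is a match of letters, not a site. Among promoters of genes that passed the filter, the shares were 5.23% for NRF1, 2.93% for YY1, 8.02% for GABPA and 6.77% for TATA. Tested members with and without the letters had median log2 fold changes of -0.28 and -0.30 for NRF1, -0.35 and -0.29 for GABPA, -0.31 and -0.29 for YY1, and -0.35 and -0.29 for TATA, with 12, 5, 8 and 5 members that held them.

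Other genes of the same pathway were read from lists beside the members. Of 5 carriers and subunits with other names, 4 fell. Cyc1, the cytochrome c1 subunit of complex III, went from 430.4 ± 3.93 to 332 ± 5.78 CPM, and Cycs, cytochrome c itself, from 113 ± 2.51 to 91.5 ± 6.53 CPM (SD, n = 3), at log2 fold changes of -0.37 and -0.31. Of the electron transfer flavoprotein genes, Etfb was lowest at -0.46, Etfa fell at -0.23, and Etfdh had a log2 fold change of -0.02 and no call. With the offset for exonic length all 5 were lower, Etfdh at -0.19. With that for main transcript length Etfdh stood at -0.01 without a call, and Cyc1, Cycs, Etfa and Etfb were lower. Of 41 assembly factors outside the naming rule, 38 were tested, 23 fell and 2 rose, with a median of -0.16. Sdhaf4 and Coa6 were lowest at -0.50 and -0.49, and Cox17, a copper chaperone of complex IV, and Coa5 were the ones that rose, at 0.37 and 0.15. With the offset for exonic length 16 were lower and 2 higher, and Coa5 stood at 0.08 without a call.

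The 13 subunits encoded in mitochondrial DNA did not move in 1 direction, with 5 lower and 3 higher and a median log2 fold change of -0.05. mt-Nd3 and mt-Nd6 were lowest at -0.31 and -0.15, and mt-Atp8 and mt-Nd4l highest at 0.73 and 0.43. With the offset for exonic length, 1 was lower and 8 were higher. The libraries were made from polyA RNA, and reads of adjoining or opposite mitochondrial genes may not be told apart.

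Of 14 citric acid cycle genes, 9 fell and 1 rose, with a median log2 fold change of -0.10. Mdh2 and Idh2 were lowest at -0.26 and -0.24, Idh3a stood at -0.01 without a call, and Ogdh rose at 0.11. With the offset for exonic length 9 were lower and none higher, and Ogdh stood at 0.03 without a call. Of 12 regulators of mitochondrial biogenesis, 11 were tested, 1 fell and 5 rose, with a median of 0.08. Esrra, an orphan nuclear receptor, fell from 60.8 ± 1.73 to 46.7 ± 2.86 CPM, at -0.38, and Tfb1m stood at -0.17 without a call. Ppargc1b and Pprc1, coactivators of the PGC-1 family, rose at 0.50 and 0.32, the first of them from 14.1 ± 0.511 to 20.8 ± 2.39 CPM (SD, n = 3). Ppargc1a had no count in any library. With the offset for exonic length 2 regulators were lower and 3 higher, with Ppargc1b and Pprc1 among the higher ones. With that for main transcript length, Esrra, Tfam, Polrmt and Yy1 were lower, at -0.36, -0.23, -0.19 and -0.12. Gabpa, Ppargc1b and Pprc1 were higher with it, at 0.20, 0.42 and 0.13. Yy1, named after its values were seen, was called higher at 0.13. It had no call at 0.01 with exonic length and was called lower at -0.12 with main transcript length. Of the other factors whose motifs were searched, Gabpa was called higher at 0.28, and at 0.20 with either length offset. Nrf1 had no call at -0.03, was called lower at -0.29 with exonic length and had no call at 0.04 with main transcript length.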

How the data were processed

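RNA-seq libraries of GnRH-treated LβT2 cells were used. The authors aligned single reads with STAR 2.5.1b and counted them per gene with featureCounts 1.5.0-p1 on GRCm38, with GENCODE M8 names, and the deposited values are estimated counts that hold parts of counts and are not scaled for depth. The setting that divided reads is not given in the sources used here.

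Counts were rounded and fitted in R 4.3.3 with the quasi-likelihood test of edgeR 4.0.16, TMM scaling, filterByExpr (minimum count 10) and Benjamini-Hochberg adjustment over all tested genes. Limma 3.58.1 (voom) and DESeq2 1.42.0 were alternatives, beside other scaling, no filter, a 1.2-fold threshold, replicate block, length and GC offsets (loess, span 0.5), thinning and leaving out libraries. Shares were compared by exact permutation tests. The test was tried on simulated data. Totals ran from 4909418 to 47438746 counts.

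Lengths, positions and coding sequences came from GENCODE M21, which matched 46574 genes, and the main transcript length is the median over principal transcripts. The naming rule reads no expression value, but it and the lists were chosen with earlier results of these data known. Printed per library are main subunits of each complex, Cox7a1 and the 6 highest and 6 lowest fold changes, while untested complex IV subunits are given by their highest level. Of the other lists, mainly the 2 highest and 2 lowest are named, by fold change and for some by mean and SD. The result of 1 member is not reported by name here, and the plot of fold changes by gene leaves it out, while counts, sums and the other plots include it.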

Additional observations from a re-analysis of the deposited data

How the results depend on the processing

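The count of 77 lower members stayed between 61 and 82, with none higher, under every alternative that kept all members except the 1.2-fold threshold, which left 29 members lower and 1693 genes called (1277 higher, 416 lower). Leaving out 1 library gave 72 to 77 lower members, medians from -0.31 to -0.28 and 6357 to 7273 genes called. The median log2 fold change moved to -0.20 with the offset for exonic length, -0.16 with that for main transcript length, an alternative chosen after seeing the data, -0.21 with exonic length offset and replicate block together, -0.34 with no filter on low counts and -0.24 without members that held parts of counts, where 18 fell. Called genes split into 2328 higher and 3637 lower with the exonic length offset and 2168 and 3448 with that for main transcript length, against 3828 and 3651. The median of all genes was -0.04 and -0.03 under these offsets.

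Replicate numbers were not shown to pair libraries, since deviations of same-numbered libraries correlated at -0.0084, 0.012 and -0.0077. The replicate block gave 78 lower members and 7472 genes called, and added a call for Ndufaf6.

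Some directions turned. The main transcript length offset turned 3 members that were called lower and ended their calls, with log2 fold changes of 0.049 for Atp5o, 0.033 for Cox5a and 0.017 for Ndufb10, and it put Ndufa12 at 0.089 and Ndufaf4 at -0.064. With the exonic length offset they were 0.068 for Ndufa12 and -0.12 for Ndufab1, and with the replicate block added 0.087 and -0.13, where Ndufab1 was called lower both times. With the GC offset, Atp5s stood at -0.099, Ndufab1 at -0.093 and Ndufaf4 at -0.17, the last called lower, and with no filter they stood at -0.027, -0.021 and -0.024. Thinning put Ndufaf4 at -0.026. Leaving out 1 library gave -0.091 to 0.14 for Atp5s, -0.076 to 0.011 for Ndufa12, -0.00079 to 0.045 for Ndufab1 and -0.011 to 0.060 for Ndufaf4. The difference in the Atp5g3 share lay between -0.536 and 0.257 percentage points without 1 library and at 0.0310 with the union of exons. The cause was not tested.

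Before the start only, the YY1 letters were in 1.23% of member promoters. Among promoters of tested genes the shares were 5.23% (NRF1), 8.02% (GABPA), 2.93% (YY1) and 6.77% (TATA). Low members such as Atp5s and the assembly factors carry the widest errors.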

Other observations

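The symbol patterns also matched 11 rows that the annotation calls processed pseudogenes and that were left out. The row with the most counts among them, named after its values were seen, was Ndufb4c, with 2130.0, 2353 and 769 counts in the fresh and 368, 214 and 530 counts in the RNA-Best libraries, and Cox6c2 had 888, 1085 and 367 against 130.0, 73.3 and 199. These counts are not scaled for depth, and such rows may hold reads of the parent genes.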
